A study of Mus musculus with 6 samples.

Results

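Amino acids and the transmitters made from them cross membranes through solute carriers, and the carriers of 7 families were followed here in hepatic stellate cells, liver pericytes that store vitamin A. A gene belonged to the set when its symbol in the array's annotation began with Slc1a, Slc3a, Slc6a, Slc7a, Slc36a, Slc38a or Slc43a. The rule used names only, but it was set with earlier results of these data known. That gave 53 of the 16446 genes measured, each with 1 probe. The rule takes names, so it also brings in Slc7a6os, a gene beside Slc7a6 that encodes no known carrier, and Slc43a3, whose product carries purine nucleobases.

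The Slc1 family takes up glutamate or exchanges small neutral amino acids. The Slc6 family couples uptake to sodium and chloride and serves transmitters, creatine, taurine and amino acids. Many Slc7 proteins are light chains that reach the surface only when bound to a heavy chain of the Slc3 family, and they exchange 1 amino acid for another. Slc36 proteins move small amino acids with protons, Slc38 proteins accumulate glutamine and alanine with sodium, and Slc43 proteins let large neutral amino acids pass down their gradient. Dividing and matrix-producing cells depend on such carriers for glutamine, leucine, glycine and proline, and leucine and glutamine also signal to the growth kinase complex mTORC1.

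The study compared 3 arrays of wild-type cells with 3 of Sept4 knockout cells, and mice of both genotypes had cirrhosis induced by the hepatotoxin carbon tetrachloride (CCl4). Sept4 encodes a septin, a GTP-binding protein that forms filaments, and the title of the series asks about its loss in the change of stellate cells into myofibroblasts. The labels give no strain, age, time or dose, and do not say whether the arrays came from separate mice, pools or repeat hybridisations, so p-values reflect only how far these samples spread, which may be technical. Sept4 itself was not analysed here, and the deleted gene therefore gave no check of the labels.

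Signals are on a log2 scale. A difference is the knockout mean minus the wild-type mean, and a gene passed at an adjusted p of 0.05 in limma, a linear model fitted across all 23473 probes with Benjamini-Hochberg adjustment over all of them. Between 940 and 1255 probes on an array were tied at that array's lowest value, and such a value bounds the level without measuring it. The lowest value was 0, 0.12 and 0.22 in wild-type and 0.32, 0.31 and 0.32 in knockout arrays. A probe at the lowest value on every array would therefore read higher in the knockout with nothing measured. Over all probes 26.7% were higher, 16.0% were lower and 42.7% passed in either direction, a background against which each marker count below stands. Of 12 stellate cell markers 7 were higher and 2 lower in the knockout. The log2 of their summed linear signals was 11.71 to 11.77 in wild-type and 12.35 to 12.43 in knockout arrays. Such a sum is set mainly by the brightest markers. Of 11 myofibroblast markers 2 were higher and 9 lower, with sums of 15.87 to 16.02 and 15.70 to 15.73. Markers of other cells were also measured, with 5 of 14 hepatocyte markers higher and 1 lower, 1 of 13 macrophage markers higher and 4 lower, 3 of 9 endothelial markers higher, 1 of 5 cholangiocyte markers lower, 1 of 10 lymphocyte markers higher and 2 lower, and 1 of 9 neuronal and glial markers higher and 3 lower. The sum of the macrophage markers, taken in the same way, was 11.66 to 11.75 in wild-type and 11.49 to 11.53 in knockout arrays. That of the hepatocyte markers was 11.37 to 11.42 and 11.60 to 11.65. The endothelial sum was 8.34 to 8.45 and 8.75 to 8.82, and that of the neuronal and glial markers 7.41 to 7.49 and 7.48 to 7.67. The cholangiocyte sum was 10.09 to 10.22 and 8.97 to 9.04. It follows Spp1, by far the brightest of these markers, which differed by -1.26. The 4 other cholangiocyte markers did not pass, with differences of 0.51 (Krt19), 1.12 (Cftr), 0.06 (Sox9) and 0.002 (Tacstd1). That sum therefore shows no fall shared by the cholangiocyte markers. The lymphocyte sum was 6.74 to 6.76 and 6.75 to 7.02. The part of these cell types in the differences below was not tested, and in such bulk samples fewer cells of a type and less RNA per cell cannot be told apart.

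Of the 53 genes, 24 passed, 14 higher and 10 lower in the knockout. Over all probes 42.7% passed, 26.7% higher and 16.0% lower, so the share of carriers that passed was near the background. The median difference of the 53 genes was 0.15, beside 0.12 for all probes. Over all 16446 genes with 1 probe each, as the carriers were taken, the median was 0.14 and 44.3% passed. The groups did not overlap for 27 carriers, 16 with the knockout above and 11 with it below, against 56.2% of all probes, 34.5% above and 21.7% below. The share above includes any probe at the lowest value on every array. Among the 4161 probes with a mean signal under 2, 747 were above and 250 below. Of the 53 carriers, 8 both passed and differed by at least 2-fold, and of all probes 7.02% did so. The carriers did not move as 1 block in either direction. Every family with more than 4 members held genes of both signs, and the plot of differences by family shows how far members of the same family lay apart.

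**Figure D1:**
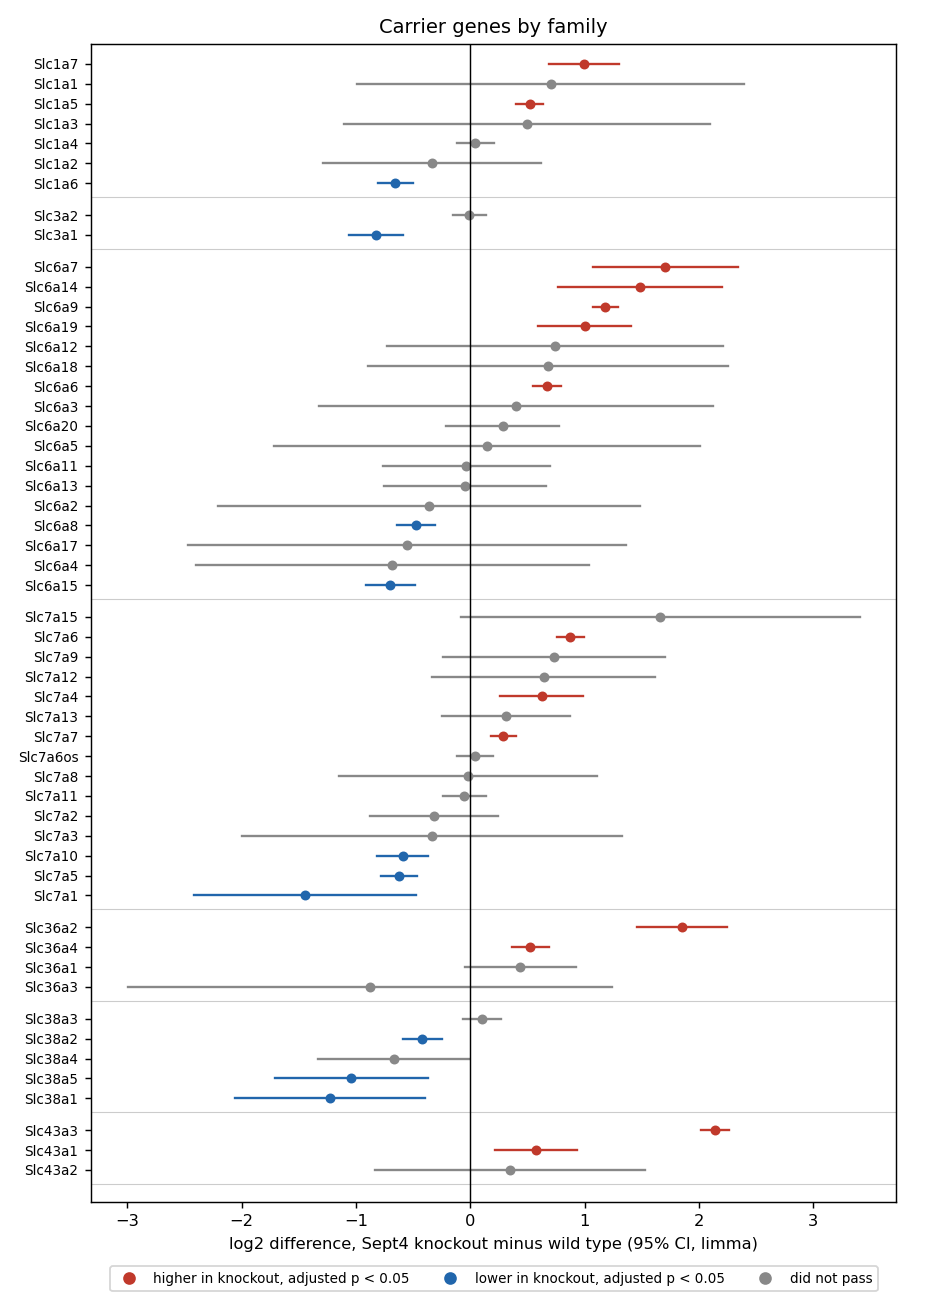
Log2 difference, Sept4 knockout minus wild type, for each of the 53 carrier genes (dot) with its 95% confidence interval (line), grouped by family from Slc1a at the top to Slc43a at the bottom. Red genes were higher and blue genes lower at an adjusted p of 0.05, grey genes did not pass, and Slc43a3 lies farthest to the right with a narrow interval.

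How often a carrier passed went with its signal, as it did for all probes. Of 14 carriers with a mean signal under 2, 2 passed, beside 12.7% of all probes in that range. From 2 to 4 it was 5 of 15, beside 19.1%, from 4 to 6 it was 6 of 8, beside 44.2%, and from 6 upwards 11 of 16, beside 67.9%. The lowest value of an array was reached by 11 carriers on at least 1 array. No filter on low values was applied, so all 53 were tested, and for a dim carrier that did not pass a sizeable difference could have been missed.

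**Figure D2:**
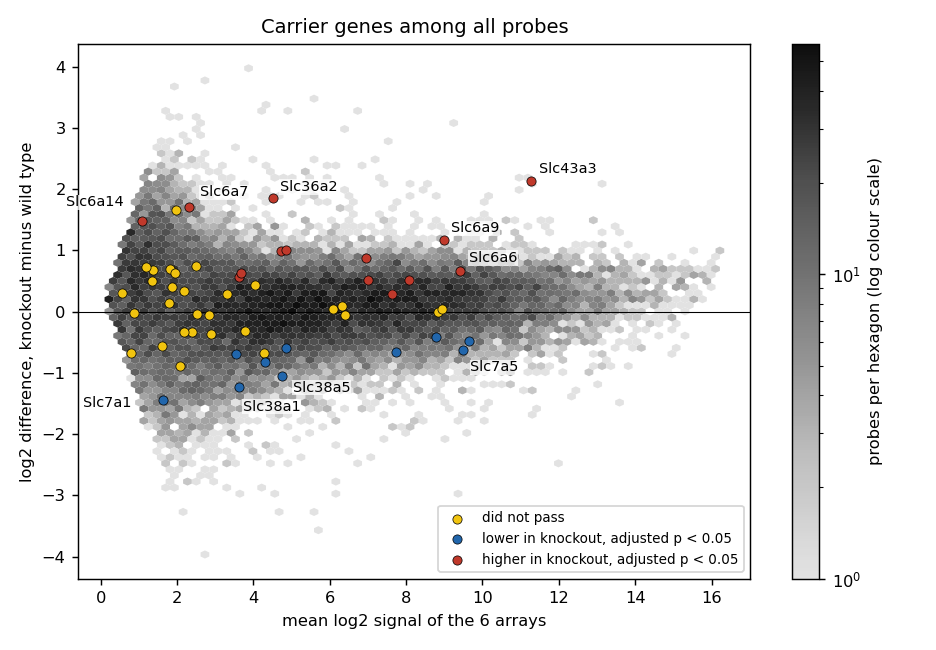
Log2 difference, knockout minus wild type, against the mean log2 signal of the 6 arrays for all 23473 probes (grey hexagons, darker for more probes on a log scale) and the 53 carrier genes (coloured points). Slc43a3 and Slc6a9 lie at the upper edge of the cloud at high signal, whereas the points that did not pass gather at a mean signal under 4.

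The largest rise was that of Slc43a3, the nucleobase carrier. Its wild-type arrays read 10.26, 10.19 and 10.17, and its knockout arrays 12.36, 12.35 and 12.34. The groups stood far apart, by a log2 difference of 2.14 ± 0.05 (SE, n = 3 per group) or 4.41-fold, with an adjusted p of 0.000214. Only 101 of all probes rose more, and of the 1129 other probes with a mean signal at least as high, 0 did. Slc43a1, which encodes the leucine and phenylalanine facilitator LAT3, lies close to Slc43a3 on chromosome 2 with 1 coding gene between them. Slc43a1 read 3.33, 3.09 and 3.59 in wild-type and 3.82, 3.96 and 3.95 in knockout cells, a difference of 0.57 ± 0.14 (SE) with an adjusted p of 0.0259. That call was lost in 7 of 16 alternatives, among them an upper quartile scaling with an adjusted p of 0.0561 and leaving out wild-type replicate 1 (0.0751) or knockout replicate 1, 2 or 3 (0.0529 to 0.0772). Slc43a2, the related facilitator LAT4, was dim, with a difference of 0.34 and an adjusted p of 0.592.

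Among carriers of the sodium- and chloride-coupled Slc6 family, 5 of 17 rose and 2 fell, beside 26.7% and 16.0% of all probes. Slc6a9 encodes GlyT1, which takes up glycine, the amino acid that recurs throughout the collagen helix. It read 8.39, 8.42 and 8.37 in wild-type and 9.56, 9.57 and 9.59 in knockout cells, with no overlap. Slc6a9 rose by 1.18 ± 0.04 (SE), or 2.26-fold, with an adjusted p of 0.000293. Slc6a6, the taurine carrier, read 9.02, 9.11 and 9.09 in wild-type and 9.73, 9.73 and 9.77 in knockout cells, a rise of 0.67 ± 0.05 (SE) with an adjusted p of 0.000763. Cdo1 and Csad, which act on the route from cysteine to taurine, rose too. Cdo1, the cysteine dioxygenase, rose by 0.555 with an adjusted p of 0.00162 and Csad, the cysteine sulfinate decarboxylase, by 1.08 with an adjusted p of 0.000513. In the opposite direction, the creatine carrier Slc6a8 read 9.86, 9.92 and 9.85 in wild-type and 9.31, 9.41 and 9.48 in knockout cells, a difference of -0.48 ± 0.06 (SE) and an adjusted p of 0.0036.

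Another 4 Slc6 genes passed. Slc6a7, the high-affinity proline carrier known from neurons, read 0.95, 1.77 and 1.66 in wild-type and 2.99, 3.16 and 3.34 in knockout cells. It rose by 1.70 ± 0.25 (SE) with an adjusted p of 0.00465, or by 1.14 where a linear offset was added before taking logs. Slc6a19, which encodes the epithelial neutral amino acid carrier B0AT1, read 4.35, 4.65 and 4.06 against 5.40, 5.29 and 5.36, and rose with an adjusted p of 0.00624 (95% confidence interval of the log2 difference 0.59 to 1.41). Tmem27, or collectrin, the partner that brings B0AT1 to the surface of kidney cells, rose by 0.565 with an adjusted p of 0.0328. Slc6a14, a carrier of neutral and cationic amino acids, read 0.65, 0.12 and 0.22 in wild-type and 1.89, 1.31 and 2.23 in knockout cells. As 2 of its wild-type values lay at the lowest value of their arrays, its difference of 1.48 ± 0.28 (SE, adjusted p of 0.011) is imprecise, and with the linear offset it was 0.71. Slc6a15, a carrier of branched-chain amino acids and proline, fell by 0.70 ± 0.08 (SE), with an adjusted p of 0.0026, from a mean of 3.90 ± 0.11 to 3.20 ± 0.10 (SD, n = 3).

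The carriers that end transmission by noradrenaline (Slc6a2), dopamine (Slc6a3), serotonin (Slc6a4), GABA (Slc6a11, Slc6a12 and Slc6a13) and glycine at inhibitory synapses (Slc6a5) did not pass. Their group means lay between 0.46 and 3.08, and their differences ran from -0.68 for Slc6a4 to 0.74 for Slc6a12. Slc6a17, Slc6a18 and Slc6a20 did not pass either, with differences of -0.56, 0.68 and 0.28. Without knockout replicate 3, which read 2.97 against 0.32 and 0.69 on the other knockout arrays, Slc6a17 differed by -1.38 and passed with an adjusted p of 0.0143. The annotated Slc6a20 corresponds to Slc6a20b in the current gene table, 1 of a pair of similar mouse copies that a probe may not separate. The spread between arrays was wide for most of these genes, with a standard error of 0.73 for Slc6a5 and 0.75 for Slc6a17.

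**Figure D3:**
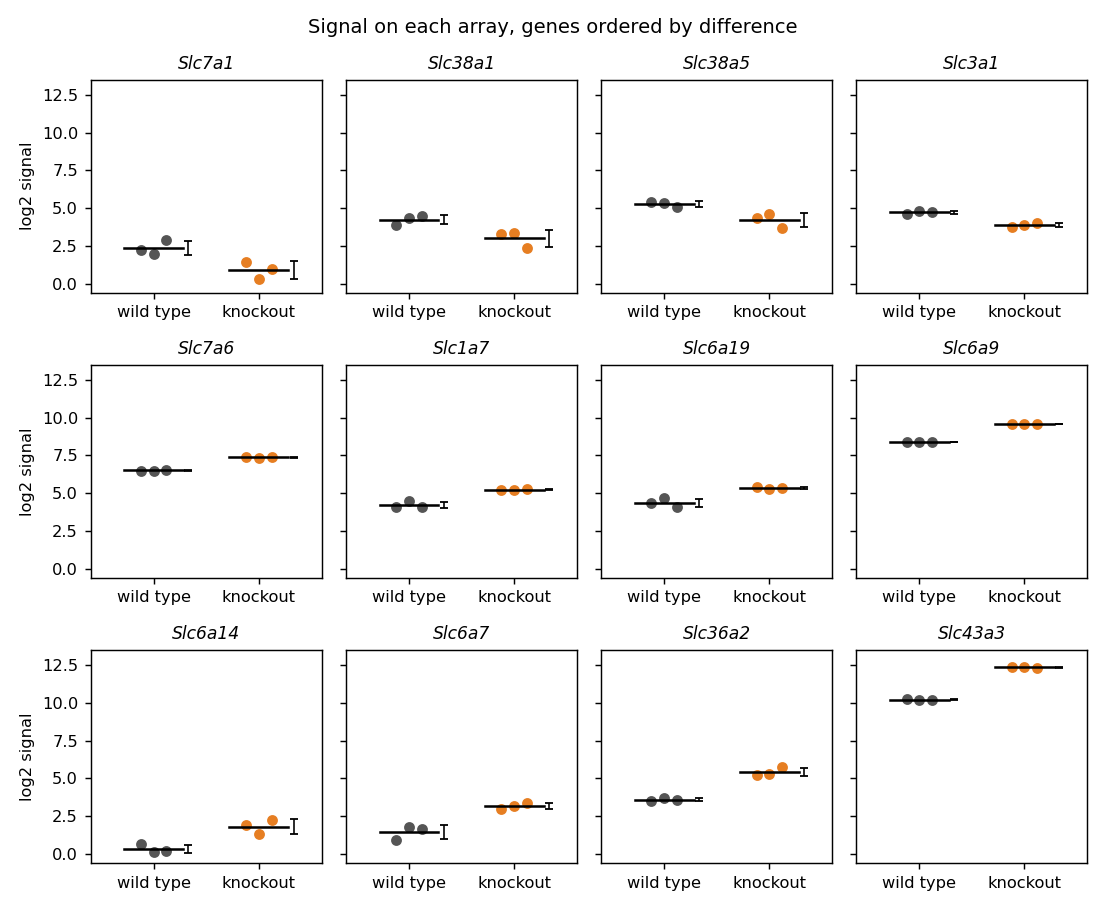
Log2 signal on each of the 3 wild-type (grey) and 3 knockout (orange) arrays for the 12 carriers that passed, did not overlap and differed by at least 0.75, ordered from the largest fall (Slc7a1) to the largest rise (Slc43a3). Horizontal lines are group means and the bars beside them are ± 1 SD, and knockout arrays of Slc7a1, Slc38a1 and Slc38a5 spread more widely than those of Slc43a3 or Slc6a9.

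Heavy and light chains of the exchangers did not move together. Slc3a2, the heavy chain CD98 that carries most light chains to the surface, read 8.87, 8.88 and 8.77 in wild-type and 8.78, 8.83 and 8.88 in knockout cells. The groups overlapped, with a difference of -0.01 (95% confidence interval -0.16 to 0.13) and an adjusted p of 0.902, although after cyclic loess it differed by -0.15 with an adjusted p of 0.0453. Its light chain Slc7a5 (LAT1), the main route for leucine into growing cells, read 9.77, 9.85 and 9.79 in wild-type and 9.09, 9.23 and 9.22 in knockout cells. Slc7a5 thus fell by 0.62 ± 0.06 (SE), or 1.54-fold, with an adjusted p of 0.00147. Slc7a6 (y+LAT2), which exchanges cationic for neutral amino acids, read 6.49, 6.48 and 6.55 against 7.41, 7.36 and 7.37, and rose by 0.88 ± 0.05 (SE) with an adjusted p of 0.000503. Its close relative Slc7a7 (y+LAT1) rose by 0.29 ± 0.04 (SE), from 7.48 ± 0.02 to 7.76 ± 0.02 (SD, n = 3), with an adjusted p of 0.00514, and after a second quantile normalisation by 0.18. Slc7a6os, whose neighbour in the gene table is Slc7a6, differed by 0.04 with an adjusted p of 0.616.

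Other CD98 light chains gave different results again. Slc7a11 (xCT), which imports cystine for glutathione synthesis, read 6.44, 6.50 and 6.35 in wild-type and 6.41, 6.44 and 6.27 in knockout cells, a difference of -0.05 (95% confidence interval -0.24 to 0.14) with an adjusted p of 0.599. Slc7a10 (Asc-1), which exchanges small neutral amino acids and D-serine, fell by 0.59 ± 0.09 (SE) with an adjusted p of 0.00482, from 5.15 ± 0.14 to 4.56 ± 0.06 (SD, n = 3). Slc7a8 (LAT2) was near the lowest values in both genotypes, with an adjusted p of 0.974. The other heavy chain, Slc3a1 (rBAT), which pairs with Slc7a9 in cystine and cationic amino acid uptake by kidney, read 4.59, 4.82 and 4.72 against 3.77, 3.88 and 4.005. It fell by 0.82 ± 0.09 (SE) with an adjusted p of 0.00213, whereas Slc7a9 was dim and differed by 0.73 with an adjusted p of 0.187.

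The branch of cationic amino acid carriers in the Slc7 family works without a heavy chain. Slc7a1 (CAT1), the widespread arginine and lysine carrier, read 2.23, 1.96 and 2.86 in wild-type and 1.46, 0.31 and 0.95 in knockout cells. The groups did not overlap, at -1.45 ± 0.38 (SE) with an adjusted p of 0.0313. However, 1 knockout value lay at the lowest of its array, and the linear offset gave -0.81. The call on Slc7a1 was lost without wild-type replicate 1 or 3 or knockout replicate 2 or 3, at adjusted p-values of 0.0637 to 0.0825. Slc7a4, a related gene whose substrate is not settled, rose by 0.62 ± 0.14 (SE) with an adjusted p of 0.0197, a call lost with the replicate number as a block (0.0558) and without wild-type replicate 3 or any 1 knockout array (0.0508 to 0.0664). The cationic carriers Slc7a2 and Slc7a3 differed by -0.32 and -0.34 and did not pass. Among the remaining Slc7 genes, Slc7a12, Slc7a13 and Slc7a15 did not pass, with differences of 0.64, 0.31 and 1.66, although the knockout values of Slc7a15, at 1.97, 2.67 and 3.75, all lay above its wild-type values of 0.00, 1.63 and 1.77. Slc7a15 passed with a trended and robust variance prior and under the replicate block.

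Among the sodium-coupled carriers of glutamine and alanine, of 5 Slc38 genes 3 fell and none rose, at a median of -0.67. Over all probes 16.0% were lower and 26.7% higher. Slc38a2 (SNAT2), which many cells raise when amino acids are scarce, read 8.96, 9.004 and 9.01 in wild-type and 8.46, 8.59 and 8.65 in knockout cells, and fell by 0.42 ± 0.07 (SE) with an adjusted p of 0.00602. Slc38a1 (SNAT1) read 3.90, 4.35 and 4.47 against 3.29, 3.37 and 2.37, a difference of -1.23 ± 0.33 (SE) with an adjusted p of 0.0322. Slc38a5, which runs in either direction and carries glutamine, histidine and serine, read 5.38, 5.35 and 5.06 against 4.35, 4.62 and 3.70, a difference of -1.04 ± 0.26 (SE) with an adjusted p of 0.0272. The last knockout array was the lowest for both genes, yet leaving it out did not end either call. The call on Slc38a1 was lost without wild-type replicate 2 or 3 or knockout replicate 1 (0.0542 to 0.0986) and with the replicate block (0.0912), and that on Slc38a5 without any 1 wild-type array or knockout replicate 1 (0.0544 to 0.0843).

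Slc38a1, Slc38a2 and Slc38a4 follow one another on chromosome 15 with 0 coding genes between neighbours. Slc38a4 read 4.42, 4.72 and 4.70 in wild-type and 4.40, 3.96 and 3.46 in knockout cells, and its difference of -0.67 ± 0.26 (SE) did not pass, at an adjusted p of 0.0946. It passed with a trended and robust prior and without knockout replicate 1. In all 3 of these neighbours the knockout values lay wholly below the wild-type values, as they did for 21.7% of all probes. Slc38a3, which releases glutamine from liver and glia, differed by 0.10 with an adjusted p of 0.267.

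The Slc1 exchanger Slc1a5 (ASCT2), another main route for glutamine into growing cells, was higher in the knockout. It read 7.84, 7.81 and 7.79 in wild-type and 8.38, 8.32 and 8.30 in knockout cells, a rise of 0.52 ± 0.05 (SE), or 1.43-fold, with an adjusted p of 0.00121. Its relative Slc1a4 (ASCT1), an exchanger of alanine, serine and cysteine, differed by 0.04 with an adjusted p of 0.637. Among the glutamate carriers, Slc1a6 (EAAT4), best known from Purkinje cells, fell by 0.66 ± 0.06 (SE) with an adjusted p of 0.00118, and read 8.12, 7.99 and 8.05 against 7.46, 7.39 and 7.36. Slc1a7 (EAAT5), best known from the retina, read 4.11, 4.48 and 4.10 against 5.19, 5.22 and 5.26, a rise of 0.99 ± 0.12 (SE) or 1.99-fold with an adjusted p of 0.00265. The glutamate carriers of neurons and astrocytes, Slc1a1, Slc1a2 and Slc1a3, were dim and did not pass, with adjusted p-values of 0.444, 0.516 and 0.567.

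Of the proton-coupled Slc36 genes 2 of 4 rose, beside 26.7% of all probes. Slc36a2 (PAT2), a high-affinity carrier of proline, glycine and alanine, read 3.48, 3.67 and 3.59 in wild-type and 5.25, 5.30 and 5.75 in knockout cells. That was a rise of 1.85 ± 0.15 (SE), or 3.61-fold, with an adjusted p of 0.000994. Its neighbours on chromosome 11 did not pass, with Slc36a1 (PAT1), which exports amino acids from lysosomes, at 0.44 and an adjusted p of 0.128, and Slc36a3 at -0.88 and an adjusted p of 0.442. Slc36a3 was uneven among the knockout arrays, at 0.32, 3.44 and 1.15, and without knockout replicate 2 its difference was -1.78 and passed with an adjusted p of 0.0140. Slc36a4 (PAT4), a carrier of proline and tryptophan, rose by 0.52 ± 0.06 (SE), from 6.75 ± 0.06 to 7.27 ± 0.07 (SD, n = 3), with an adjusted p of 0.00251.

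Over all probes the deposited values had a median difference of 0.12, which became 0.01 after cyclic loess. The shift as deposited varied with the mean signal. Its median was 0.33 under 2, -0.009 from 2 to 4, 0.013 from 4 to 6 and 0.16 from 6 upwards. A small difference therefore stands relative to the shift at its own signal. The lowest values were higher on knockout arrays, and their part in the shift under 2 was not tested. After a second quantile normalisation 14 carriers passed as higher and 10 as lower, after cyclic loess 14 and 11, and after an upper quartile shift 13 and 10. None of the 24 genes that passed changed sign under those scalings or with the linear offset. Among all probes that passed, the share that were higher moved from 62.6% as deposited to 52.5%, 51.5% and 50.7% under the same scalings.

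**Figure D4:**
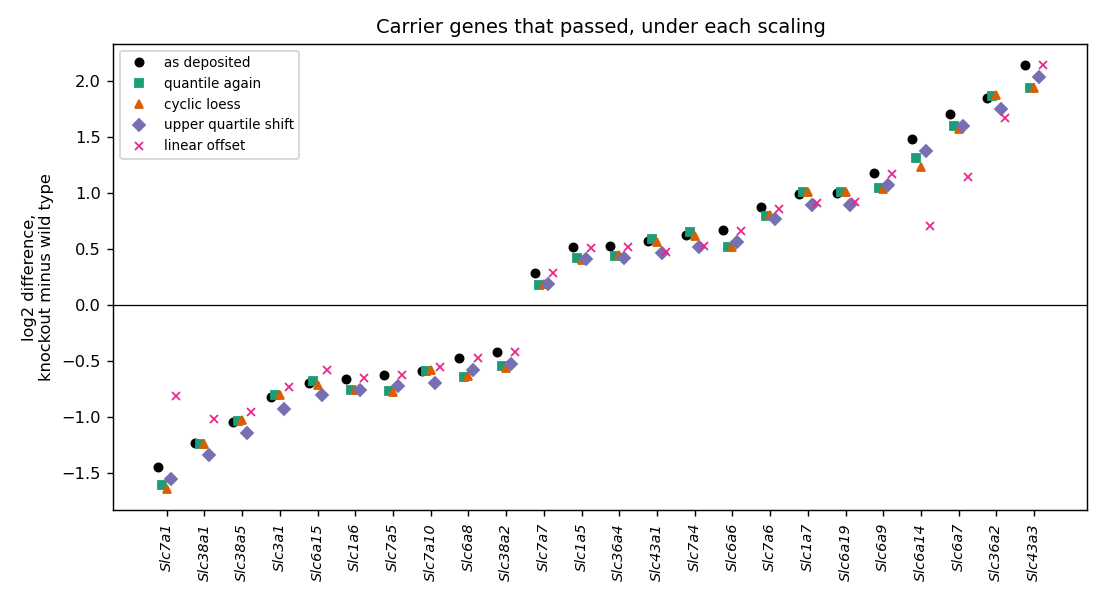
Log2 difference, knockout minus wild type, of the 24 carriers that passed, as deposited and under 4 other scalings (symbols), ordered by the difference as deposited. Symbols of 1 gene keep to the same side of 0, and the linear offset moves Slc7a1, Slc6a14 and Slc6a7 most.

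Short stretches upstream of the carriers are shown because several of these genes are textbook targets of stress factors that bind named elements. RefSeq promoter sequences on GRCm38.p6 covered 36 of the 53 genes with 57 start sites, and the 250 bases before each start were searched on both strands. The 17 genes without an entry included Slc43a3, Slc7a5 and Slc36a2. Bases after a start were not searched, so elements there would be missed. The core of the amino acid response element, through which ATF4 acts, was spelled TTNCATCA or TGATGNAA. The core of the antioxidant response element, which the factor NRF2 binds, was spelled TGACNNNGC or GCNNNGTCA, and the cyclic AMP response element TGACGTCA. The last 2 spellings share the letters TGAC. The cyclic AMP element was found before 0 of the 57 starts, beside 1.55% of all promoters of that length. The amino acid response core was found in 3 of the 57 promoters, those of Slc7a11 and Slc7a7, beside 3.45% of all promoters. The antioxidant core was found in 8 of the 57, from 7 genes, beside 10.2%. The lines below hold the last 100 bases before a start, 5′ to 3′, with matches in capitals, for the gene with 2 amino acid response cores before 1 start (Slc7a11) and for genes with an antioxidant core that rose (Slc6a9, with 2 starts, and Slc7a6) or fell (Slc38a2).
Slc7a11, chr3:50443614-50443713, minus strand: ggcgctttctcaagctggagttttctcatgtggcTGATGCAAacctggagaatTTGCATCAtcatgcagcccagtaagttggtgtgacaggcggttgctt
Slc6a9, chr4:117849250-117849349, plus strand: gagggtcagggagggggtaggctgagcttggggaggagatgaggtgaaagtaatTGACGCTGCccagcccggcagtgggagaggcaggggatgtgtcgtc
Slc6a9, chr4:117855447-117855546, plus strand: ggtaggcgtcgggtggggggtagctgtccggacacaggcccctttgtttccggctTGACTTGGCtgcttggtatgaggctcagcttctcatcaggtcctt
Slc7a6, chr8:106168821-106168920, plus strand: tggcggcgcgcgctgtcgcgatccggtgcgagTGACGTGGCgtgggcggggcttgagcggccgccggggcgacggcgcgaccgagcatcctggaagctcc
Slc38a2, chr15:96699729-96699828, minus strand: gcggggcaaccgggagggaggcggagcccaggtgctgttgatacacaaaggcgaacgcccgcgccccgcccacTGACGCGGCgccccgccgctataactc

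In Slc7a11 the cores began 66 and 47 bases before the start, on opposite strands, and this gene differed by -0.05 between the genotypes. Slc7a7, which rose by 0.29, has 1 core before each of 2 starts, at 141 and 243 bases, both outside a window of 100 bases. The antioxidant cores before the starts of Slc6a9, at 46 and 45 bases, of Slc7a6, at 68 bases, and of Slc43a1, at 16 bases, stood upstream of genes that rose by 1.18, 0.88 and 0.57. The same core stood 27 bases before the start of Slc38a2 and 11 bases before that of Slc7a1, both of which fell. Genes with an antioxidant core therefore lay on both sides, and Slc6a11 and Slc6a13, which also hold it, did not pass. A match describes letters only and does not show that a factor binds there.

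Genes around the carriers were counted from 11 lists of their pathways. In the 8 lists with a median signal above 6, between 42.3% and 62.5% of the measured genes passed, beside 67.9% of all probes from 6 upwards. In the 3 lists with a median signal between 2 and 4 it was 26.7% to 29.3%, beside 19.1% of all probes in that range. Each list was placed by its median and also holds dimmer or brighter genes, so these shares are not matched for signal. Over all probes, whatever their signal, 42.7% passed. Of 33 genes of the integrated stress response and its factor ATF4, 11 rose and 7 fell, at a median of 0.01. Atf4 itself fell by 0.50 with an adjusted p of 0.00133, and the asparagine synthetase Asns, a standard target, differed by -0.06 with an adjusted p of 0.375, both named after their values were seen. The mitochondrial enzyme Pck2 rose by 0.85 and the stress protein Nupr1 by 0.66, whereas the lipoprotein receptor Vldlr fell by 1.08, the growth factor Vegfa by 0.86 and stanniocalcin 2 (Stc2) by 0.71. The count fell to 10 genes without wild-type replicate 2 and 11 without knockout replicate 2. Of 17 cytosolic aminoacyl-tRNA synthetases 6 rose and 2 fell, with Nars up by 0.63, Cars by 0.60, Kars by 0.45 and Gars by 0.41, and Rars down by 0.64. Their median was 0.12, beside 0.12 for all probes and 0.14 for all genes with 1 probe each. The count of synthetases that passed fell to 5 with the replicate block.

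Of 16 enzymes that use glutamine, glutamate, proline and arginine, 2 rose and 8 fell, at a median of -0.32 beside 0.12 for all probes. Arginase 2 (Arg2) differed by -1.89, and as it was dim, with 1 knockout value at the lowest of its array, that size is imprecise. Ornithine decarboxylase (Odc1), which begins polyamine synthesis, fell by 0.82, argininosuccinate lyase (Asl) by 0.60 and the proline synthesis enzyme Aldh18a1 by 0.58, whereas the mitochondrial aspartate aminotransferase Got2 rose by 0.70. Of 16 serine, glycine and one-carbon enzymes 5 rose and 4 fell, at a median of 0.09. Cytosolic serine hydroxymethyltransferase (Shmt1), which makes glycine from serine, fell by 1.43. The mitochondrial folate enzyme Mthfd1l (-0.81) and Gnmt (-0.47) fell too. Psat1, of serine synthesis, rose by 0.38 and methionine synthase (Mtr) by 0.43. Without wild-type replicate 2 that count fell to 5 genes.

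Of 26 enzymes that break down branched-chain and aromatic amino acids, 9 rose and 2 fell, at a median of 0.17. The propionyl-CoA carboxylase subunit Pccb rose by 1.01, methylmalonyl-CoA mutase (Mut) by 0.91, the mitochondrial branched-chain aminotransferase Bcat2 by 0.84 and the tryptophan dioxygenase Tdo2 by 0.66. Kynureninase (Kynu) rose by 1.41 from the lowest value on 2 wild-type arrays. Among 33 genes of amino acid sensing, of mTORC1 itself and of its regulators and targets, 13 rose and 5 fell, at a median of 0.16. The Ragulator subunits annotated as Mapbpip (Lamtor2) and 0910001L09Rik (Lamtor4) rose by 1.01 and 0.69, the mTORC1 component Akt1s1 by 0.92, the stress-induced inhibitor Sesn1 by 0.82 and folliculin (Flcn) by 0.66. Ragulator subunits were split in direction, as those annotated as Map2k1ip1 (Lamtor3, -0.36) and Hbxip (Lamtor5, -0.43) passed as lower. The subunit annotated as 2400001E08Rik (Lamtor1, 0.16) did not pass. Lamtor1, Lamtor3 and Lamtor5 were named after their values were seen. Of 16 genes of glutathione synthesis and cysteine supply 6 rose and 2 fell, at a median of 0.19, and the count fell to 5 without wild-type replicate 2 or 3. The ligase subunit Gclc rose by 0.39, the NRF2 inhibitor Keap1 by 0.35, and the gamma-glutamyltransferase relatives annotated as Ggtla1 and Ggtl3 by 1.02 and 0.49, whereas Nfe2l2, which encodes NRF2, fell by 0.68.

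**Figure D5:**
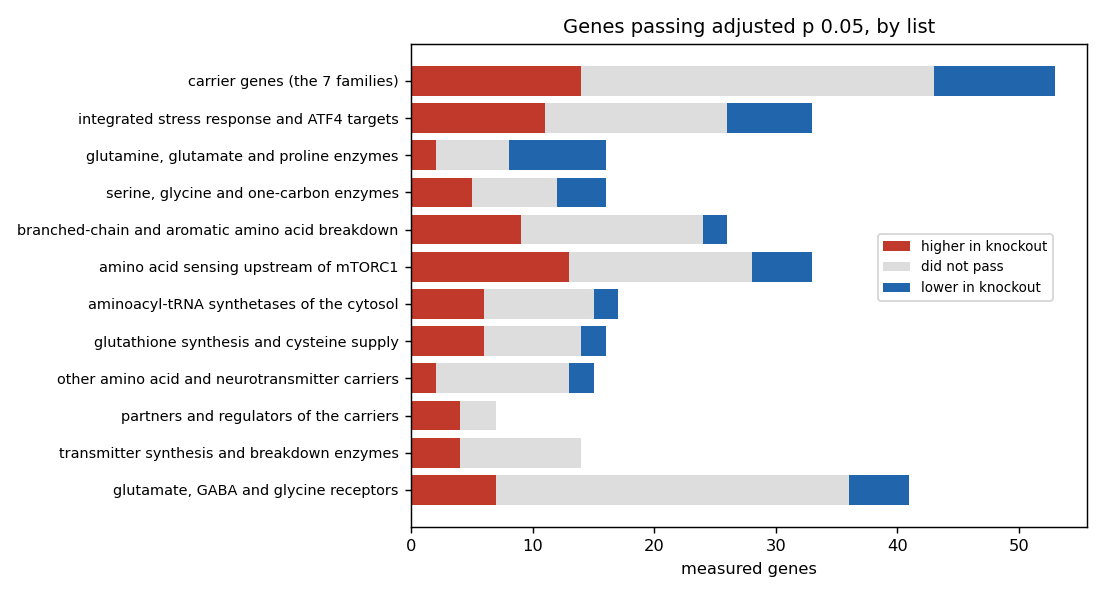
Number of measured genes in the 53 carriers and in each of 11 pathway lists that were higher (red), lower (blue) or did not pass (grey) at an adjusted p of 0.05. Lower calls outnumber higher calls in 1 list, that of glutamine, glutamate and proline enzymes, with 8 against 2.

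Of 15 carriers of amino acids and transmitters outside the 7 families, 2 rose and 2 fell. Slc32a1, which fills vesicles with GABA and glycine, rose by 0.54 and the peptide and histidine carrier Slc15a3 by 0.38, whereas the lysosomal carrier annotated as Pqlc2 fell by 0.25. The aromatic amino acid carrier Slc16a10 differed by -1.60, with 1 knockout value at the lowest of its array. Of 7 partners and regulators 4 rose, led by the ubiquitin ligase Nedd4, which rose by 0.87, and Tmem27. The kinase Sgk3 rose by 0.31 and the SNARE protein Stx1a by 0.23. Only 2 of the 7 passed after an upper quartile shift or without knockout replicate 2 or wild-type replicate 1 or 2, and 1 passed with the replicate block or without knockout replicate 3.

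Of 14 enzymes of transmitter synthesis and breakdown 4 rose and none fell, at a median of 0.32. Beside Csad and Cdo1 these were Aldh5a1, the last enzyme of GABA breakdown, which rose by 0.54, and the serine racemase Srr, which rose by 0.30. Receptors for glutamate, GABA and glycine were dim, with a median signal of 2.51, and 14 of 41 lay at the lowest value on at least 1 array. Of these receptors 7 passed as higher and 5 as lower. The GABA receptor subunits Gabrb2 and Gabra2 differed by -1.72 and 1.71, the glutamate receptor subunit Grin3b by 1.65 and the glycine receptor subunit Glrb by 1.18. The glutamate receptor Grm3 was higher too, but 2 of its wild-type values lay at the lowest of their arrays, so its fitted difference of 1.70 is no measured size. The receptor count ranged from 3 to 6 when any 1 array was left out, and was 3 without wild-type replicate 3.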

How the data were processed

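The authors deposited 1 table of log2 signals for 23473 probes from 6 single-colour arrays (dye Cy5), quantile normalised per the labels. The deposited arrays shared a median of 5.02, but their distributions were not equal. Upper quartiles were 7.70 to 7.73 in wild-type and 7.82 to 7.84 in knockout arrays, and maxima 15.7 to 15.8 and 16.6 to 16.8. The second quantile normalisation therefore changed the values. Base 2 was inferred from the values' range, since no source names it, and the background correction is not given in the sources used here. The protocol in the labels speaks of microRNA labelling and of tumours, so the design was taken from the genotype and cell type labels. Probes were named from the platform annotation, with 16631 carrying 1 symbol, 6842 none and 0 several. A gene's value came from its probe with the highest mean of the 6 arrays. List genes with old symbols were matched through a RefSeq gene table on GRCm38.p6, which was used for names and the order of genes only.

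With limma 3.58.1 (R 4.3.3), lmFit and eBayes gave the differences on the values as deposited, without a low-signal filter, over all probes. The residual degrees of freedom were 4, the prior added 1.11, and a standard error is the moderated one. The fit was also run on simulated arrays in which few probes changed and the spread did not follow the signal. As these settings differ from the data, that run does not show how the fit performs here. By rule, members that passed, did not overlap and differed by at least 0.75 are given with each array, and the others that passed, with 9 well-known carriers whatever their test, with their difference. Array values printed for further members were added after their values were seen. From each pathway list came the 5 largest differences that passed. The members and lists were chosen with earlier results of these data known. Alternatives were a second quantile normalisation, cyclic loess, an upper quartile shift, a linear offset at the 10th percentile, leaving out the dimmest 25% or 50% of probes or those at an array's lowest value, a trended and robust prior, weights per array, a block on the replicate number, omission of each array in turn and the mean of a gene's probes. Promoters were the 250 bases before each RefSeq start. Figures were drawn with matplotlib 3.10.9.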

Additional observations from a re-analysis of the deposited data

How the results depend on the processing

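Of the 24 carriers that passed, none changed sign under any of the 17 alternatives, and Slc3a2, which did not pass, differed by 0.016, 0.0061 and 0.0068 without knockout replicate 1, wild-type replicate 1 and wild-type replicate 2, and between -0.044 and 0.016 over all 6 omissions of 1 array. With 1 array left out, 20 to 22 carriers passed, 12 to 14 higher and 7 to 10 lower. Without the dimmest 50% of probes only 16 carriers were tested, of which 11 passed, 7 higher and 4 lower, and 2 receptor genes passed. The median difference of the carriers, 0.15, was 0.10 with array weights or the linear offset, 0.0468 after a second quantile normalisation, 0.0454 after an upper quartile shift, 0.00503 after cyclic loess, 0.0420 and 0.0715 without the dimmest 25% and 50% of probes, and 0.0722 to 0.227 with 1 array left out. With the replicate number as a block 22 carriers passed, and 5 synthetases, 1 partner gene and 6 receptor genes. Same-numbered arrays did not deviate together from their group means, with correlations of 0.0077, -0.0013 and -0.0020. These normalised values cannot show whether such arrays shared a mouse or batch, and the labels do not say. An upper quartile shift left 2 partner genes. With 1 array left out, the stress response list gave 10 to 15 calls, serine and one-carbon enzymes 5 to 8, glutathione genes 5 to 8, partner genes 1 to 3 and receptors 3 to 6. The causes were not tested. At a mean signal under 2 the median standard error of the carriers was 0.62, against 0.06 from 6 upwards, so low signal limits what could be detected.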
